A study of Triticum aestivum with 72 samples.

Results

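Thionin and PR5 are 2 defence genes of bread wheat, followed here across 36 lines. All probe sets that the array's annotation gives to gene LOC543413, with the synonyms thionin, Pur-A1 and THI1.3, or to gene LOC543292, with the synonym PR5, were taken. The rule for the probe sets uses the annotation and no expression value, though the 2 genes themselves were picked with earlier results of these data known. They were 3 of 61290 probe sets, an _at and an _x_at probe set for the thionin and 1 _at probe set for PR5. On this array type the ending _x_at marks probes that can also match other sequences, and _s_at or _a_at marks probes shared by several transcripts.

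The 36 lines come from a mapping population of the cross RL4452 × AC Domain. No treatment is named, and neither parent is among the arrays. Plants were grown in rows in the field, and whole seeds were collected 5 days after anthesis, so each sample mixes all tissues of many seeds. Messenger RNA from 2 biological replicates a line was hybridised to 72 one-colour arrays, numbered replicates 1 and 3 in 35 lines and 2 and 3 in line H9.

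Thionins are small, cysteine-rich peptides that damage microbial membranes. The purothionins of wheat, to which the synonym Pur-A1 belongs, accumulate in the starchy endosperm, the storage tissue of the grain. PR5 proteins are thaumatin-like proteins with antifungal activity, and many of them rise after infection. In a seed that has only begun to fill, the question was how far each gene was on and whether its level belonged to the line.

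The arrays had similar overall levels, with medians between 5.31 and 5.44 on the log2 scale, and 3 of them (B65 replicate 1, B33 replicate 3 and C31 replicate 3) stood farthest from the mean array. In 12 lines the 2 arrays fell on different sides in at least 30% of 170 probe sets that split the arrays into separate groups, and D15, with 32.4%, was among these 12 while B65, C22 and C31, with 5.88% to 12.4%, were not. Which of the 2 arrays in such a line bears the wrong label, if either does, cannot be told from these files. Of the tissue markers, the 3 genes found for the starchy endosperm list (GBSS-I, AGP-S and BMY1) had means of 9.03 to 12.70. Among 9 probe sets of embryo and aleurone genes, 5 never rose above the highest of 17 control probe sets for artificial tag sequences on the same array. Most of 11 probe sets of storage prolamins, which also belong to the starchy endosperm, never did so either, though a probe set of LOC543213 did in all 72 arrays. Of 34 probe sets of the green pericarp list, most of them of the rbcl gene, 20 never rose above the highest tag probe set and 9 did in all 72 arrays. The photosystem protein PsbP of that list had a mean of 12.25 in its _at probe set. In whole seeds, fewer cells of a type and less RNA per cell cannot be told apart.

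Thionin LOC543413 lay at the bottom of the scale in nearly every array. Its _at probe set ran from 3.46 over a median of 3.69 to 4.87, and its _x_at probe set from 3.36 over a median of 3.71 to 6.26 (log2 intensity, 72 arrays). In linear intensity the medians were 12.9 and 13.1. The tag probe sets, used only as a gauge of background since levels of different probes are not comparable, had means of 3.61 to 5.11. The _at probe set exceeded the highest tag probe set in 0 of 72 arrays and the _x_at probe set in 1 array. That array was replicate 1 of line D15.

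In D15 replicate 1 both thionin probe sets were at their highest. The _at probe set read 4.87 there and 3.72 in the other D15 array, and the _x_at probe set read 6.26 against 3.86. No replicate stands behind the value of this array, and no fold is given since the medians lie in the range of the tag probe sets. The next arrays of the _x_at probe set were C22 replicate 1 with 4.42 and D39 replicate 1 with 4.18, and without D15 replicate 1 its SD over arrays fell from 0.35 to 0.19. The partner arrays, C22 replicate 3 with 3.93 and D39 replicate 3 with 3.65, were again lower.

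The arrays D15 replicate 1, C22 replicate 1 and D39 replicate 1 were high in both probe sets of the gene, at ranks 1, 3 and 5 of the _at probe set and 1, 2 and 3 of the _x_at probe set. Other high arrays of the _at probe set were less so in the _x_at probe set. In B65 replicate 1 the _at probe set read 4.57, second among the 72 arrays, and the _x_at probe set read 3.94, at rank 10. This array was the one farthest from the mean array, and it stood at least 1 log2 unit above every other array in 120 probe sets. D15 replicate 1 did so in 20 probe sets and had rank 34 of 72 by distance from the mean array. The part of these array-wide deviations in the thionin values was not tested.

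**Figure D1:**
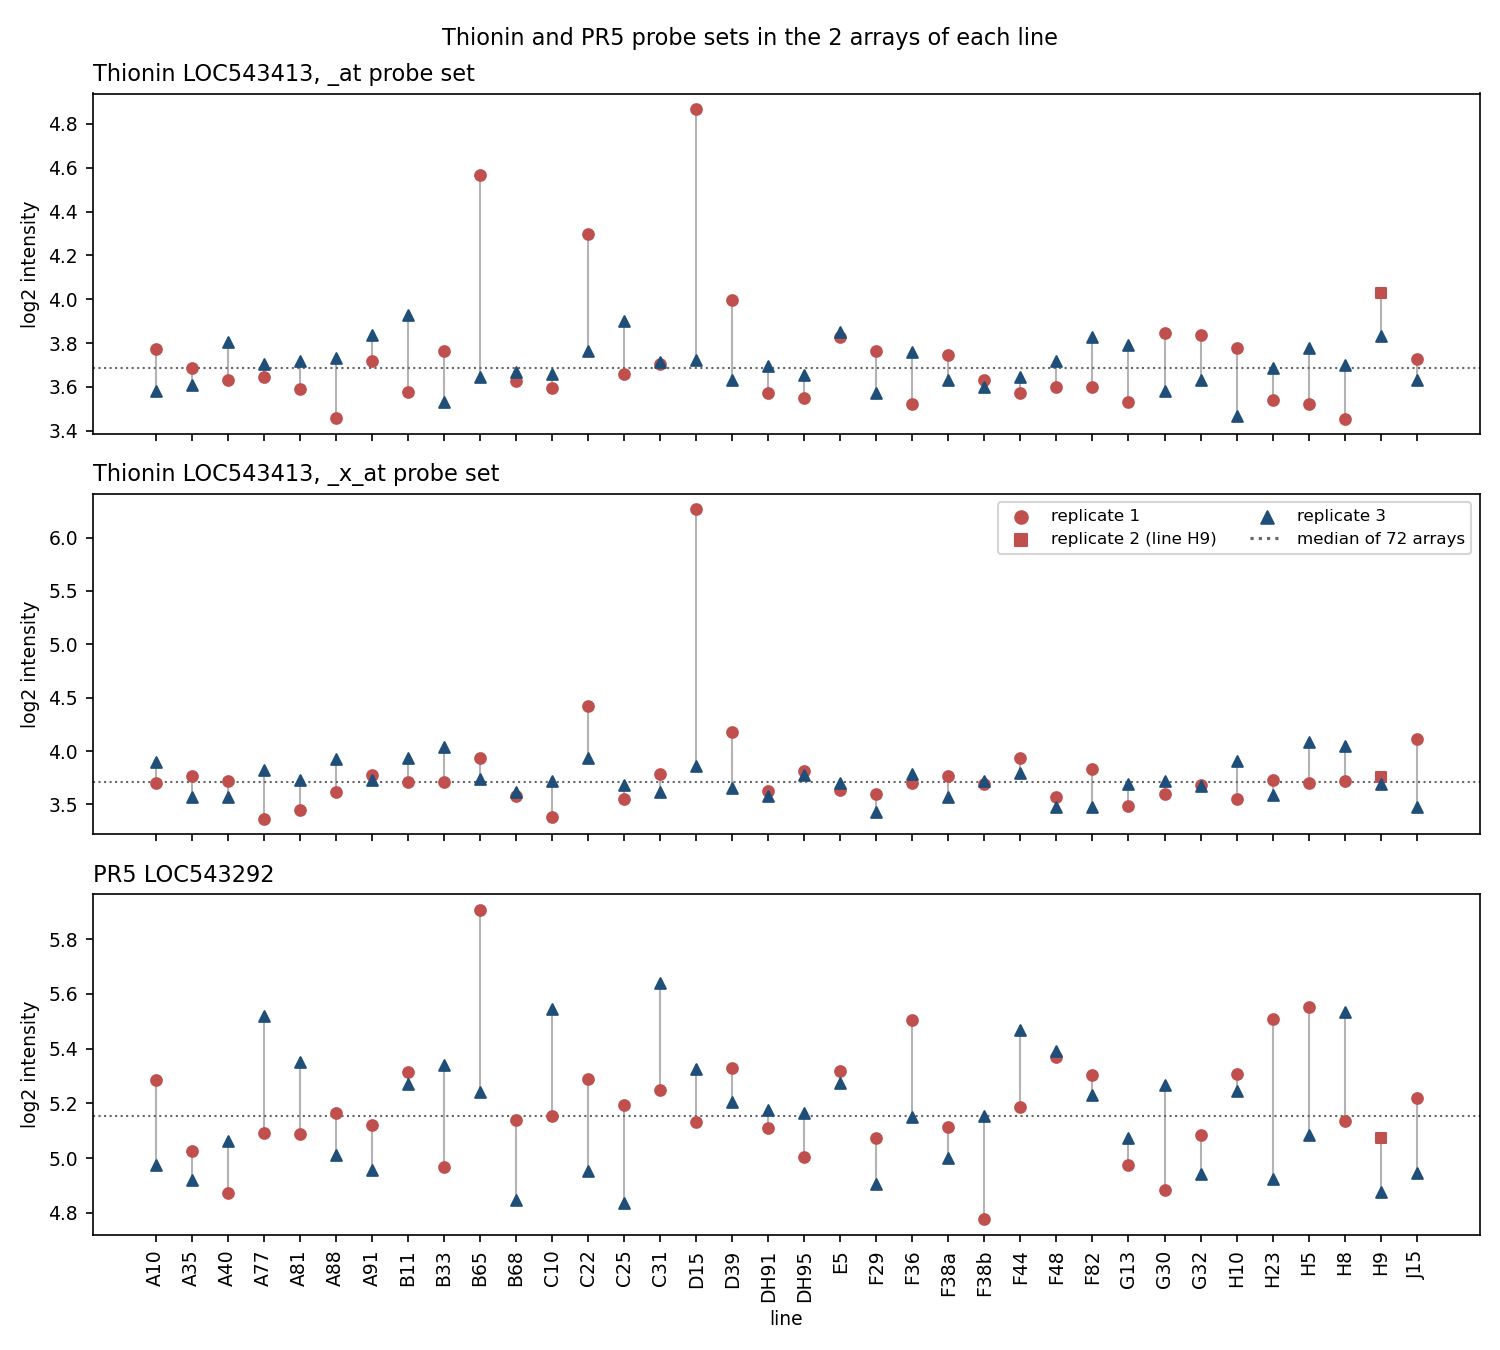
Log2 intensity of the 3 probe sets (vertical axes) in each of the 36 lines (horizontal axis). Each point is 1 array, the grey bar joins the 2 arrays of a line, and the dotted line is the median of the 72 arrays. The _x_at probe set of thionin reads 6.26 in D15 replicate 1 and at most 4.42 in any other array, while PR5 spreads over 4.78 to 5.91, with the longest bar in B65.

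PR5 had an SD of 0.22 over arrays, as the _at probe set of thionin had. No single array stood as far apart as D15 replicate 1 did in the _x_at probe set of thionin. Without that array the SDs of thionin were 0.17 (_at) and 0.19 (_x_at). LOC543292 ran from 4.78 in F38b replicate 1 over a median of 5.15 to 5.91 in B65 replicate 1 (log2 intensity, 72 arrays). In 34 of 72 arrays it exceeded the highest tag probe set. The next highest values were 5.64 in C31 replicate 3, 5.55 in H5 replicate 1 and 5.55 in C10 replicate 3. Their partner arrays read 5.25, 5.08 and 5.15, and H5 is an unmatched line. D15 replicate 1, the array with the most thionin, read 5.13 for PR5, and its partner read 5.32. The 2 arrays with the most PR5, B65 replicate 1 and C31 replicate 3, also ranked 1 and 3 by distance from the mean array, and the part of that in the PR5 values was not tested.

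Line means of all 3 probe sets were ordered, and most neighbours lay closer together than the SD between the arrays of a line. For the _at probe set of thionin they ran from 3.58 in H8 to 4.29 in D15, with a residual SD of 0.23 between the arrays of a line. All 35 neighbouring pairs of lines lay closer together than that SD. For the _x_at probe set they ran from 3.52 in F29 to 5.06 in D15 with a residual SD of 0.34. D15 was 0.89 above the next line, C22 with 4.18, and the other 34 neighbouring pairs lay within the residual SD. PR5 line means ran from 4.96 in F38b to 5.57 in B65, with C31 next at 5.44. The residual SD was 0.21 and all 35 neighbouring pairs lay within it. Neighbours in a sorted list of many means lie close together whether or not lines differ. The residual SD also describes single arrays, and line means vary less. These counts of neighbours therefore do not show whether the order of lines lies within the error.

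None of the 3 probe sets passed the test for a difference between lines beyond the spread between the 2 arrays of a line. Over all 61179 probe sets tested, 2.54% passed the limma moderated F-test at an adjusted p under 0.05. For thionin, F was 0.92 (adjusted p = 0.823) in the _at probe set and 1.25 (adjusted p = 0.631) in the _x_at probe set. PR5 had F = 1.13 (limma, adjusted p = 0.708). The intraclass correlation, which is the part of the variance that line membership accounts for, was -0.051, 0.084 and 0.056 in the same order, against a median of 0.064 over all probe sets. The median difference between the 2 arrays of a line was 0.19 for both thionin probe sets and 0.23 for PR5, and the median difference between the means of 2 lines was 0.076, 0.13 and 0.16. The former compares single arrays and the latter means of 2 arrays, which vary less, so their sizes are not directly comparable. At 2 arrays a line, the differences between lines could not be separated from the replicate error. With D15 replicate 3 left out, where 2.50% of all probe sets passed, the _x_at probe set did too (limma, adjusted p = 6.08e-05), a value that rests on D15 replicate 1 alone and assumes that a single array of D15 varies like the pairs of the other lines. With D15 replicate 1 left out in its place, 2.30% of all probe sets passed and its adjusted p was 0.809 (limma).

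None of the 3 probe sets passed the comparison of replicate 3 with replicate 1 in the 35 lines with both, where 2.60% of all probe sets passed (0.616% higher and 1.98% lower in replicate 3). The _at probe set of thionin differed by -0.04 (SE 0.05, limma adjusted p = 0.746) and was higher in replicate 3 in 21 of 35 lines. The _x_at probe set differed by -0.06 (SE 0.08, limma adjusted p = 0.736), with 17 of 35 lines higher. Without line D15 this difference was 0.0080. PR5 differed by -0.02 (SE 0.05, limma adjusted p = 0.855) and was higher in replicate 3 in 15 of 35 lines. The arrays were hybridised on 12 days, 8 of which held a single replicate number, so replicate and day are largely confounded.

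**Figure D2:**
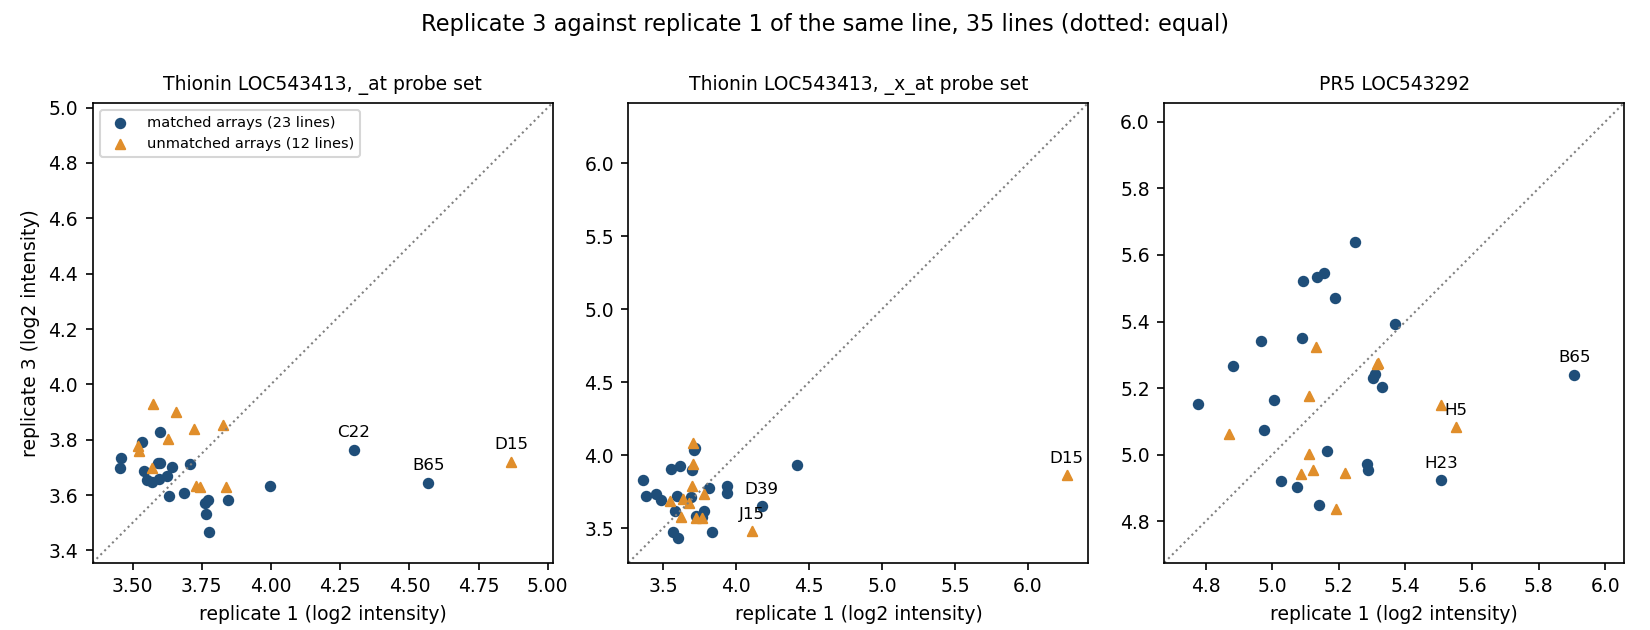
Log2 intensity in replicate 3 (vertical axis) against replicate 1 (horizontal axis) of the same line, 1 point a line, for the 3 probe sets in 35 lines, with the 12 lines whose arrays do not match drawn as triangles and the 3 lines farthest from equality named. D15 lies far below the dotted line of equality for thionin, with 3.86 against 6.26 in the _x_at probe set, and B65 does so for PR5 with 5.24 against 5.91.

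Lines F38a and F38b share a number in their names, which the labels do not explain. They differed by 0.07 (SE 0.22), -0.03 (SE 0.33) and 0.09 (SE 0.21) in the thionin _at, thionin _x_at and PR5 probe sets (limma, adjusted p of 1.00 each, 0 of 61179 probe sets passed). Of 630 pairs of lines, 302, 84 and 205 lay closer together.

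THI1.1, another purothionin gene whose synonyms Pur-B1 and Pur-D1 name the other subgenomes, varied more between arrays. Its _s_at probe set ran from 4.06 over a median of 4.67 to 8.57, and its _x_at probe set from 4.15 over 4.68 to 8.00. The highest array of both was again D15 replicate 1, with 4.91 and 4.51 in its partner. The _s_at probe set exceeded 6 in 9 arrays of 7 lines, and in C22 (7.73 and 6.60) and G13 (6.81 and 7.24) it did so in both arrays. It was over 6 in only 1 array of D15, of H8 (7.50 against 4.61), J15 (7.23 against 4.40), H5 (6.26 against 4.31) and A40 (6.24 against 4.49), and of these 5 lines all but H8 are unmatched. The _x_at probe set of LOC543413 followed THI1.1 in part, and its _at probe set less so. In the 8 arrays over 6 other than D15 replicate 1, the LOC543413 probe sets read 3.53 to 4.30 (_at) and 3.49 to 4.42 (_x_at). In the _x_at probe set C22 replicate 1, J15 replicate 1, H5 replicate 3, H8 replicate 3 and C22 replicate 3 of these held ranks 2, 4, 5, 6 and 11 of 72, all above the median. The 2 arrays of G13, with 3.49 and 3.69, and A40 replicate 1, with 3.72, lay near or below it. In the _at probe set C22 replicate 1 held rank 3. There J15 replicate 1, H5 replicate 3, H8 replicate 3 and C22 replicate 3 held ranks 26, 17, 34 and 21. Probes of an _x_at probe set can also match other sequences, and whether these match THI1.1 was not tested.

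**Figure D3:**
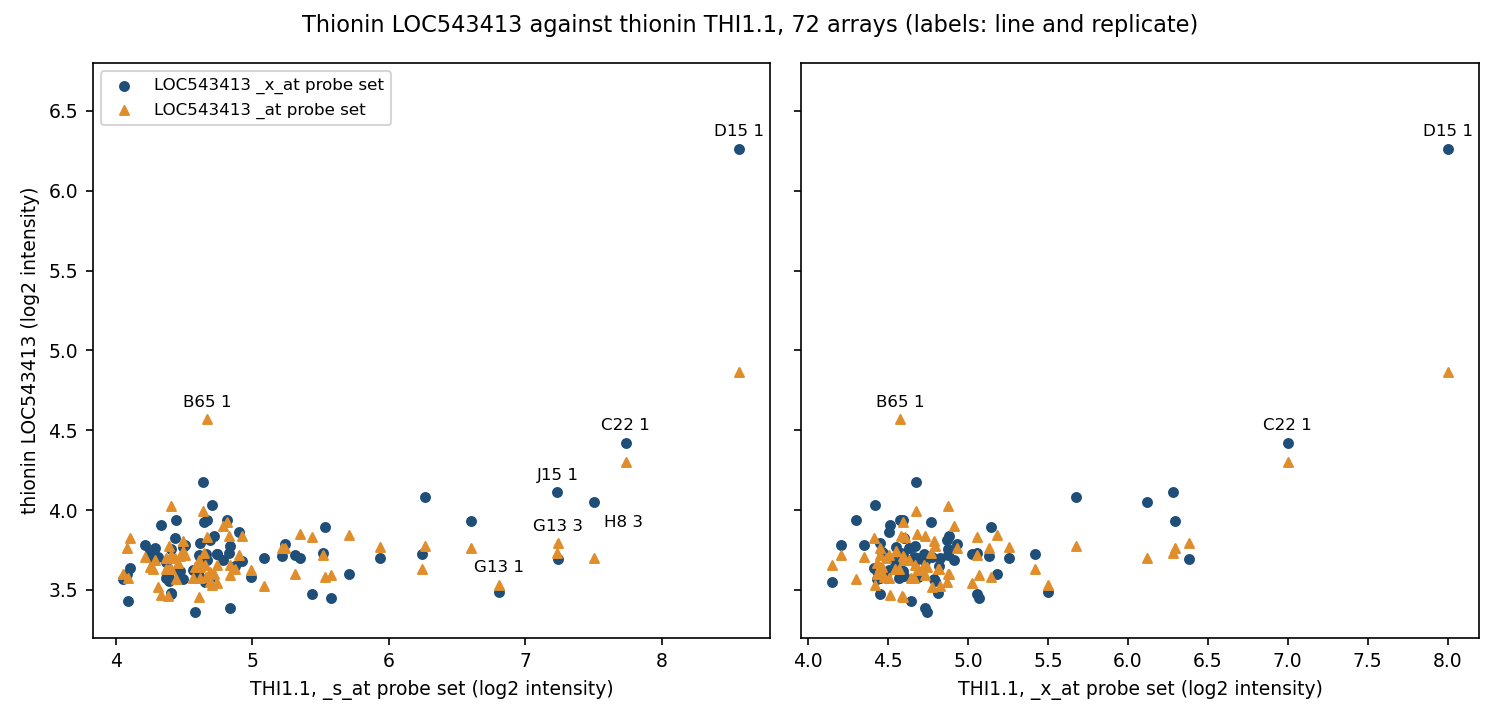
Log2 intensity of the 2 probe sets of thionin LOC543413 (vertical axis) against the _s_at (left) and _x_at (right) probe set of thionin THI1.1 (horizontal axes), 1 circle and 1 triangle for each of 72 arrays, with some arrays named by line and replicate. Arrays with THI1.1 up to 7.73 have LOC543413 at or below 4.57, and D15 replicate 1 is highest on both axes.

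THI1.1 did not pass the line test over all 36 lines either (limma, adjusted p = 0.227 for _s_at and 0.273 for _x_at). With D15 replicate 1 alone left out, its _x_at probe set passed (adjusted p = 0.0154) and its _s_at probe set did not (0.13). Over the 24 lines with matched arrays both passed (adjusted p = 0.00286 and 0.00258), where 3.99% of all probe sets passed. The LOC543413 probe sets in those 24 lines had adjusted p = 0.833 and 0.683, and PR5 had 0.742 (limma). Whether THI1.1 and LOC543413 differ in their dependence on the line was not tested.

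Of the other thionins named in the annotation, THI1.2 was highest in D15 replicate 1 with 6.03 (median 5.02, partner array 5.24). TTHV, a type V thionin, was not, with 3.92 in that array, a median of 4.02 and a highest value of 4.49 in C31 replicate 3.

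Further seed defence proteins were highest in the same array as thionin. LTP3 (LOC543095), a lipid transfer protein, read 8.80 in D15 replicate 1 in its _at probe set and at most 6.34 elsewhere. Its _x_at probe set had a mean of 13.74, ran only from 12.90 to 14.22 and had D15 replicate 1 at rank 3. The ATI genes LOC543286 and LOC543281 encode inhibitors of insect amylases and trypsin. The probe sets of LOC543286 read 6.71, 7.62 and 8.28 in D15 replicate 1 against medians of 4.44, 5.15 and 5.60, and the probe set of LOC543281 read 7.19 against 4.74. Most other arrays with much THI1.1 were high too. The probe set of LOC543286 with the median of 5.60 read 7.73 in H8 replicate 3, 7.69 in J15 replicate 1, 7.58 in C22 replicate 1, 7.37 and 7.09 in the G13 arrays and 7.23 in H5 replicate 3, and also 7.02 in B65 replicate 1. In C22 replicate 3 it read 6.61, and A40 replicate 1 was not among the 10 highest arrays of this probe set. WMAI-1 (LOC542981), a monomeric amylase inhibitor, read 6.17 against a median of 5.36, with 6.12 in A81 replicate 3, its next highest array. In D15 replicate 3 none of these stood out, with 4.39, 4.92 and 5.62 for LOC543286.

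Counted over lists, D15 replicate 1 was the highest array in 3 of 4 probe sets of small cysteine-rich seed peptides. These 4 belong to 2 genes, THI1.1 and LTP3, the LOC543413 pair that drew attention to this array being left aside. Among grain inhibitors and lectin it was highest in 5 of 13 probe sets of 9 genes, the 5 being those of LOC543286, LOC543281 and WMAI-1. Probe sets of 1 gene can read the same transcript, so they are not separate cases. D15 replicate 1 was the highest array in 2.18% of all probe sets. It was highest in 0 of 11 probe sets of storage prolamins, the gliadins and glutenins, 0 of 9 of redox defence and 0 of 2 of pathogenesis-related proteins. At a share of 2.18%, lists this short would mostly hold none, so these counts of 0 show nothing about the lists. Most of the prolamin probe sets also never rose above the highest tag probe set. The xylanase inhibitor XIP-I (LOC542997) read 9.97 and 9.00 in its 2 probe sets in D15 replicate 1, below medians of 10.50 and 9.72. Of the 3 starchy endosperm genes, GBSS-I, the starch synthase of amylose, read 11.19 in D15 replicate 1 and 10.62 in its partner over a median of 8.94. AGP-S, a subunit of the enzyme that makes ADP-glucose for starch, read 11.53 and 11.32 over 11.23, and BMY1 12.74 and 13.01 over 12.74. BMY1 was thus at its median in D15 replicate 1. The grain inhibitor and prolamin lists were drawn up after the values of D15 had been seen, and no test stands behind these counts.

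**Figure D4:**
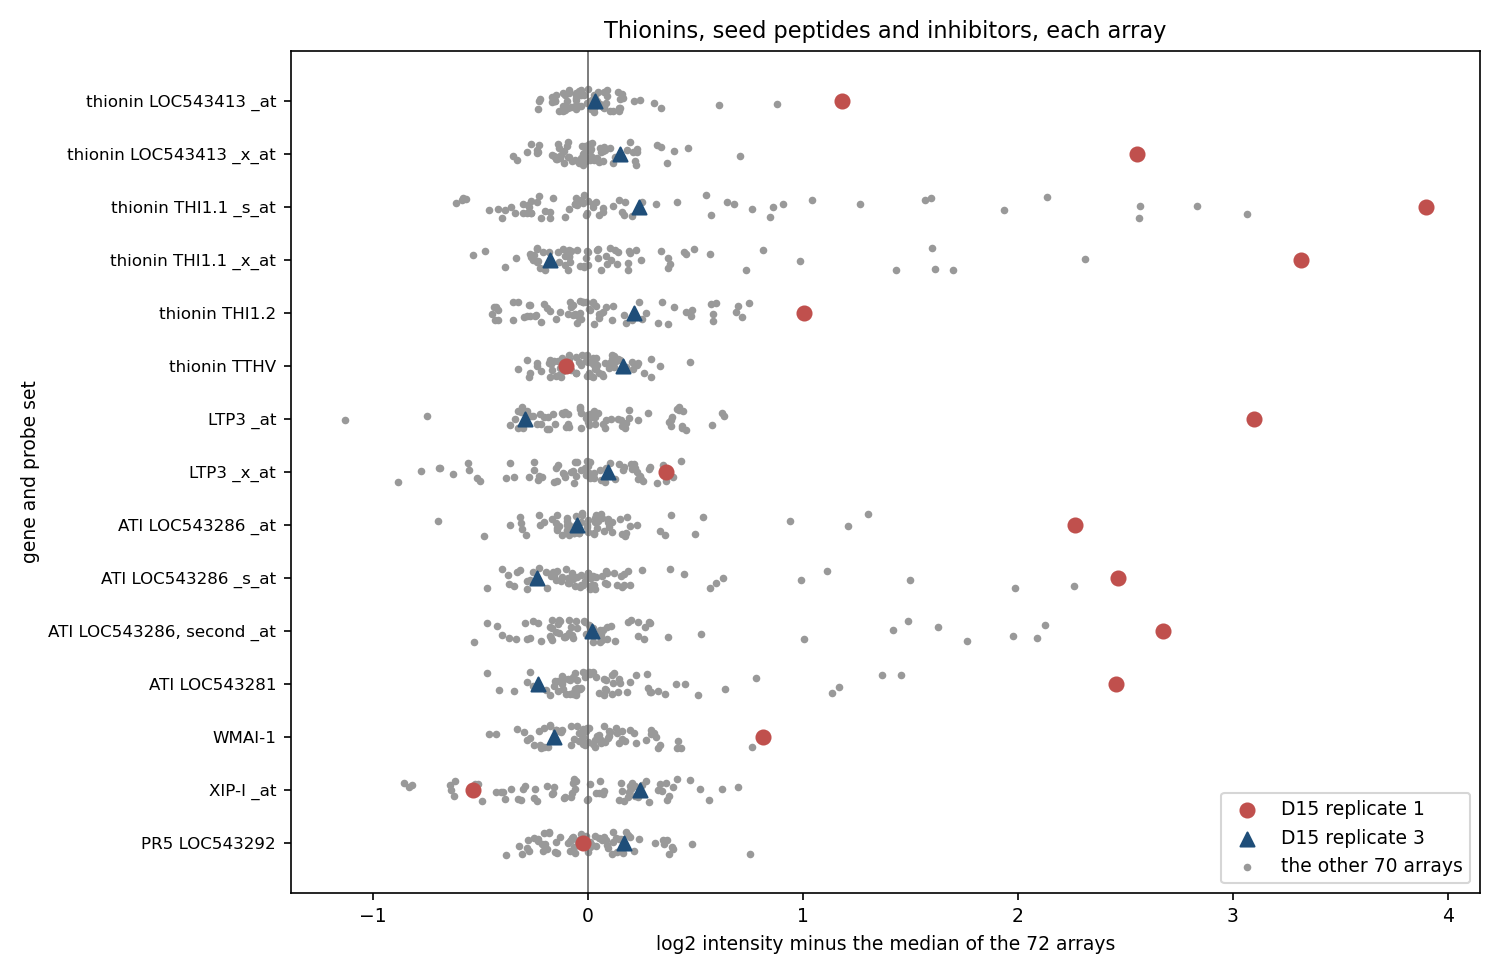
Log2 intensity minus the median of the 72 arrays (horizontal axis) for probe sets of thionins, LTP3, inhibitors and PR5 (vertical axis), 1 point an array with the D15 arrays enlarged. D15 replicate 1 lies at or near the right end for the thionins LOC543413, THI1.1 and THI1.2, for LTP3 and for the ATI genes, and near 0 for TTHV and PR5, while D15 replicate 3 lies near 0 in all of them.

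No other gene of the defence lists passed the line test over all arrays, though several passed over the matched lines or between replicates. The 3 lists that had members held 17 probe sets of 9 genes with thionin and PR5 included, and 0 of 17 passed the limma line test, beside 2.54% of all probe sets. Closest was TSA, a thiol-specific antioxidant protein, with a mean of 12.76 and an adjusted p of 0.0535 in 1 of its 2 probe sets and 0.595 in the other. CAT1, a catalase, had a mean of 8.38 and an adjusted p of 0.0897 in 1 of its 2 probe sets and 0.838 in the other. Over the 24 matched lines 5 of 17 passed, beside 3.99% of all probe sets, namely both of THI1.1, the _x_at probe set of LTP3 (0.0387), 1 of the 2 probe sets each of TSA (0.0274) and CAT1 (0.0203). The second probe sets of TSA and CAT1 had 0.743 and 0.865 there. Keeping only lines whose arrays agree can lower the error in these tests too. Between replicates 1 of 17 passed, beside 2.60% of all probe sets. It was 1 of the 2 probe sets of PER1 (LOC543108, synonym peroxidase), lower in replicate 3 by a log2 difference of -0.23 (SE 0.06, limma adjusted p = 0.0426), with 9 of 35 lines higher. The other PER1 probe set differed by -0.012 (limma adjusted p = 0.929), with 19 of 35 lines higher. With hybridisation day as a factor, 0 of 61179 probe sets passed between replicates in limma, and 3899 had an unadjusted p under 0.05. LOC542996, matched by the name wci, was highest in B65 replicate 1 with 7.22, as PR5 was, over a median of 6.60. GSTZ1, a zeta-class glutathione transferase, had adjusted p of 0.414 to 0.786 in its 3 probe sets (limma, line test).

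Across arrays, no correlation between thionin and PR5 passed its test. PR5 had Pearson's r = 0.14 with the _at probe set of thionin (permutation p = 0.242, adjusted 0.374) and r = 0.12 with the _x_at probe set (permutation p = 0.311, adjusted 0.374), and Spearman's rho was -0.049 (p = 0.681, adjusted 0.743) and 0.27 (p = 0.0208, adjusted 0.0869). Without the 2 arrays farthest on the thionin axis the r values were -0.063 and 0.26. As deviations from the means of each hybridisation day they were 0.13 and 0.10. These tests used 100000 two-sided permutations of the arrays, adjusted over 12 relations. The 72 arrays are pairs of 36 lines, so they are not fully independent.

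The 2 thionin probe sets had r = 0.68 over 72 arrays (permutation p = 1e-05, the smallest these permutations give, adjusted 0.00012) but rho = 0.19 (p = 0.104, adjusted 0.25). Without D15 replicate 1 and C22 replicate 1, the 2 arrays farthest on the _x_at axis, r was 0.24 (adjusted 0.167), so the size of the relation rests on those arrays. Without D15 replicate 1 alone r was 0.37 (adjusted 0.0293) and rho 0.16 (adjusted 0.369). It was 0.78 in the 35 replicate 1 arrays, which hold both, and 0.0037 in the 36 replicate 3 arrays. Within hybridisation days r was 0.67 (adjusted 0.00012) and rho 0.33 (adjusted 0.0228).

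Against the heat-shock protein gene hsp16.9A, whose level spanned 3.78 to 13.57, the _x_at probe set of thionin had r = -0.26 (permutation p = 0.0265, adjusted 0.159) and rho = -0.31 (p = 0.00929, adjusted 0.0869). Without the 2 arrays farthest on the hsp16.9A axis r was -0.27 (adjusted 0.166), within hybridisation days it was -0.34 (adjusted 0.0104), and without D15 replicate 1 it was -0.32 (adjusted 0.0293). After removal of the ratio of the 3′ to the 5′ signal of 7 control genes, a measure of RNA integrity and labelling, r was -0.26 (adjusted 0.104) and rho -0.22 (adjusted 0.201). PR5 had r = -0.24 with PsbP (p = 0.0413, adjusted 0.165), -0.23 without the 2 arrays farthest on the PsbP axis and -0.38 within days (adjusted 0.00756). It was -0.18 after removal of that ratio (adjusted 0.339) and -0.14 after quantile normalisation (adjusted 0.35). In replicate 1 arrays it was -0.098 (adjusted 0.878) and in replicate 3 arrays -0.42 (adjusted 0.0647). With that ratio PR5 had r = 0.20 (p = 0.0974, adjusted 0.292), 0.16 without the 2 arrays farthest on that axis, 0.28 within days (adjusted 0.0565), 0.48 in replicate 3 arrays (adjusted 0.0385) and -0.039 in replicate 1 arrays. The _x_at probe set of thionin had r = 0.0003 with this ratio (adjusted 0.998), but 0.32 without D15 replicate 1 (adjusted 0.0293). Over all 72 arrays as deposited, no relation other than that between the thionin probe sets passed. After quantile normalisation the rank correlation of the _x_at probe set with hsp16.9A did too (rho = -0.35, adjusted 0.0368).

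By Pearson's r over 72 arrays, the named genes most like thionin included grain inhibitors, a lipid transfer protein and other thionins. This is given as a description without a test, since the arrays share lines and hybridisation days. For the _x_at probe set the most similar genes were the ATI genes LOC543286 (r = 0.77) and LOC543281 (0.76), LOC100125699 (0.76), to which the annotation gives no synonym, LTP3 (0.70) and THI1.1 (0.68). For the _at probe set they were LOC543281 (0.63), LOC100125699 (0.57), LOC543286 (0.56), THI1.1 (0.53) and THI1.2 (0.50). Every one of these genes was highest in D15 replicate 1 in the probe set concerned. Without that array r fell to 0.54, 0.59, 0.53, 0.16 and 0.43 for the _x_at probe set, in the order given above. For the _at probe set it fell to 0.42, 0.29, 0.37, 0.27 and 0.40, and none of these 5 stayed among its 5 most similar named genes, which were LOC543242 (0.52), LOC100049032 (0.52), LOC606347 (0.51), LOC100049053 (0.51) and LOC542851 (0.51). For the _x_at probe set LTP3 gave way to LOC542951 (0.43), and the other 4 genes stayed. The least alike were LOC543368 (-0.45), LOC543416 (-0.45) and TUBA (-0.44), an alpha-tubulin gene, for the _x_at probe set. For the _at probe set they were LOC542961 (-0.43), COR410 (-0.40), a dehydrin gene, and LOC543278 (-0.39).

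PR5 was most like the gibberellin 20-oxidase gene GA20ox1d (LOC543325, r = 0.59), an enzyme of gibberellin synthesis, followed by LOC542876 (0.56), LOC543039 (0.55), the rbcl gene (0.54) in 1 of its many probe sets and LOC543426 (0.54). The first 4 of these were highest in B65 replicate 1, as PR5 was, and GA20ox1d read 7.66 there over a median of 6.36. Without the 3 arrays farthest from the mean array the r values were 0.44, 0.43, 0.44, 0.37 and 0.44. The least alike were LOC543393 (-0.61), LOC100037550 (-0.61) and LOC543447 (-0.61), which became -0.53 each without those 3 arrays. Without D15 replicate 1 the first of each group had r = 0.59 and -0.62.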

How the data were processed

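The intensity values were deposited by the authors as 1 table of summarised probe sets on a linear scale, from 6.02 to 29610, with RMA named, without a version, in the submitters' processing notes. Log2 was taken with a pseudocount of 0. The 111 control probe sets were left out and 61179 tested with no filter. Of all 61290 probe sets, controls included, 1273 have 1 gene symbol (771 genes, 770 of them found in the RefSeq table), 0 several and 60017 none here. For arrays, the number of arrays limits precision.

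Line means were fitted in limma 3.58.1 (R 4.3.3) with a moderated F-test. Replicate 3 was compared with replicate 1 with the line as a block. Benjamini-Hochberg adjustment ran over all probe sets, with a threshold of 0.05. Both fits were tried on simulated data with independent normal noise. That simulation held no outlying arrays, hybridisation days or unmatched lines, so it does not show how the fits behave with these. Correlations used Python 3.11.15, numpy 2.4.6 and scipy 1.17.1. Lines were called unmatched when their arrays fell on different sides in at least 30% of the probe sets with a gap of at least 0.5 log2 units and at least 12 arrays on each side, a limit chosen after seeing the data.

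The 2 genes, the gene lists and the tests were chosen with earlier results of these data known. Named are the members, all members of the defence lists found, and for each member the 5 most and 3 least similar named genes. The written inhibitor and signalling lists had no member by symbol. The grain inhibitor, prolamin and other thionin lists were added after seeing the data. Alternatives were other scalings, pseudocounts, covariates, a replicate block and leaving out arrays or lines. Coordinates and sequences were not used here.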

Additional observations from a re-analysis of the deposited data

How the results depend on the processing

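The line test of thionin and PR5 stayed above the threshold under the other scalings, pseudocount, covariates and exclusions, with limma adjusted p of 0.597 to 0.93 (thionin _at), 0.215 to 0.825 (thionin _x_at) and 0.64 to 0.899 (PR5). Permutation of the one-way F gave p = 0.608, 0.198 and 0.366. Leaving out each array in turn gave 0.292 to 0.911, 6.08e-05 to 0.809 and 0.375 to 0.785, the smallest of the _x_at probe set being the fit without D15 replicate 3. A filter on a mean log2 of at least 5 removed both thionin probe sets. The numbers of probe sets called between lines were 1553 and, without the 12 unmatched lines, 2438, with 1220 to 3075 when 1 array was left out, the highest without B65 replicate 3. Between replicates they were 1590 and became 965 without the line block, 0 with hybridisation day as a factor (3899 at an unadjusted p under 0.05), 483 with the 3′ to 5′ ratio, 805 without the unmatched lines and 695 to 2874 when 1 line was left out. What the replicate numbers mark is not given. Deviations of replicate 3 arrays of different lines had a median correlation of 0.037 (-0.66 to 0.62), with 229 of 595 pairs above 0.1, so the numbers were not taken as pairing the lines. With the replicate block the line test gave 1639 calls and adjusted p of 0.821, 0.602 and 0.675, and it changed no call of a member. Signs of differences near 0 turned without the unmatched lines, to 0.020 for the _x_at probe set and 0.030 for PR5 between replicates, where leaving out 1 line gave -0.052 to -0.0074 (_at), -0.076 to 0.0080 (_x_at) and -0.037 to -0.0046 (PR5). F38a minus F38b turned to -0.16 in the _at probe set with hybridisation day as a factor. The correlation of PR5 with the _at probe set turned to -0.095 in replicate 3 arrays and -0.063 without the 2 farthest arrays. That between the thionin probe sets lost its call in the same settings, at 0.0037 and 0.24. The cause was not tested. Alternatives for F38a and F38b, the unmatched lines and the fits without D15 replicate 1 outside the line test were chosen after seeing the data. Signals near background, as in thionin, limit how small a difference these arrays can show.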
